A study of Mus musculus with 10 samples.

Results

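The genes described here are those of the mouse replication-dependent histone clusters, taken as every row whose symbol begins with Hist1h, Hist2h, Hist3h or Hist4h. The rule gave 67 of the 22978 distinct gene rows, covering 65 gene names: 5 rows of linker histone H1, 18 of H2A, 18 of H2B, 12 of H3, 13 of H4, and 1 row on which Hist1h1e and Hist1h2be are reported together. Hist1 contributed 53 rows, Hist2 10, Hist3 3 and Hist4 1. Bulk RNA was sequenced from C57bl/6 mice aged 4 weeks, in 10 libraries: cycling and quiescent CD4+CD8+ thymocytes from thymus, and large pre-B cells, small pre-B cells and mature granulocytes from bone marrow. Each population has 1 control library (Dyrk1a flox/flox, Mx1-Cre-) and 1 conditional knockout (CKO) library (Dyrk1a -/-, Mx1-Cre+). Per the design text, 2 control mice and 2 CKO mice were pooled, so the 5 libraries of a genotype share animals. Mx1-Cre is an interferon-inducible Cre that acts in blood-forming cells and also in other tissues, and no Mx1-Cre+ mouse without the floxed allele was among the samples analysed here.

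Chromatin needs new core histones (H2A, H2B, H3 and H4) whenever DNA is copied, and the replication-dependent genes supply most of them in S phase. Their mRNAs usually lack a poly(A) tail and end just after a conserved 16-base stem-loop, which is bound by the stem-loop binding protein Slbp and cut by a complex containing the U7 small RNA. Some of these genes can also be polyadenylated downstream, which is known from cells that have left the cycle. Developing lymphocytes alternate between division (cycling thymocytes, large pre-B cells) and rest (quiescent thymocytes, small pre-B cells), and the kinase Dyrk1a is known to promote exit from the cycle. The sources used here do not say whether polyadenylated or ribosome-depleted RNA was sequenced, and the part of that choice in the levels below was not tested.

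The 16-base stem-loop was found in GENCODE vM21 transcript models (mouse GRCm38, the same assembly as mm10) of 44 of the 65 genes. It was exact in sequence for 24 of them (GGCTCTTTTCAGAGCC), spread over H1, H2A, H2B and H3, whereas the H4 genes carried a different stem. The sequences below are from 10 of these 44 genes, the abundant and the most changed of each type, with the stem-loop in capitals and 5 bases of context on either side.
Hist1h1c (H1): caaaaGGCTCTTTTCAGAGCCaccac
Hist2h2aa1 (H2A): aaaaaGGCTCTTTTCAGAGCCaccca
Hist3h2a (H2A): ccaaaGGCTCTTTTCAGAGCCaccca
Hist1h2ag (H2A): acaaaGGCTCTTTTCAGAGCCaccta
Hist3h2ba (H2B): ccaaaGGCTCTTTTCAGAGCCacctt
Hist1h2bg (H2B): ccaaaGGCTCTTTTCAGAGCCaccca
Hist1h3c (H3): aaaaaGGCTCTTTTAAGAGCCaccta
Hist1h3g (H3): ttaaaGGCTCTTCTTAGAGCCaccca
Hist1h4i (H4): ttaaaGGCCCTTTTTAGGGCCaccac
Hist1h4b (H4): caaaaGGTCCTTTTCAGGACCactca
They were chosen among genes with a stem-loop, and the abundant H2B genes Hist1h2bc and Hist2h2be are not among them, since none was found in their models. The 10 differ in how far the annotated transcript continues. It runs 840 bases beyond the stem-loop in Hist1h1c, 1643 in Hist3h2a, 330 in Hist1h4i, 169 in Hist3h2ba and 155 in Hist1h2bg. It stops after 23 bases in Hist1h2ag, 74 in Hist1h3c, 47 in Hist1h3g, 28 in Hist1h4b and 35 in Hist2h2aa1. In all, 23 genes run 100 bases or more past the stem-loop, 21 end sooner, 3 have a model of at least 800 bases with no stem-loop found, and 18 have a shorter model with none, often the coding part alone.

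The deposited values are read as FPKM, a count of fragments divided by transcript length and by the library's mapped total, and levels below are on that scale unless a log2 difference is named. Most cluster genes were scarce: 16 of the 67 rows never reached 1 FPKM, 53 stayed under 5, and only 9 reached 10 in any library. The testis genes Hist1h2aa and Hist1h2ba were at 0 in all 10 libraries. The summed FPKM of all rows was 231 to 322 in the 8 lymphoid libraries, and 517 and 605 in control and CKO granulocytes. The FPKM total of all genes was also higher in granulocytes, at 830548 and 1074923 against 360607 to 432148 in lymphoid libraries. As a share of that total, the rows held 0.0622% and 0.0562% in granulocytes and 0.0555% to 0.0814% in lymphoid libraries. The 8 highest rows of each library held 60.6% to 90.9% of that sum. Dyrk1a itself read 31.2 to 37.4 FPKM in control and 34.4 to 44.7 in CKO-labelled libraries, higher in the CKO-labelled library in 5 of 5 populations. A gene total can include transcript outside the deleted part, so it checks nothing, and the genotypes below are those of the labels. Defining markers were present in the labelled cells, with exceptions. Cd4 read 153 to 341 FPKM in the thymocyte libraries and at most 1.71 elsewhere, Pax5 read 86.8 to 184 in the pre-B libraries and at most 1.17 elsewhere, and the granule gene Camp read 22665 and 18472 in granulocytes and at most 33.4 elsewhere. S100a8, also a granulocyte marker, is listed at 0 in control granulocytes, and Elane and Mpo read 114.7 to 365.3 FPKM in large pre-B cells. Summed proliferation markers (Mki67, Top2a, Ccna2, Cdk1) were 628 and 701 FPKM in control and CKO cycling thymocytes, 6.33 and 133 in quiescent thymocytes, 881 and 956 in large pre-B cells, 143 and 322 in small pre-B cells, and 325 and 348 in granulocytes.

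**Figure D1:**
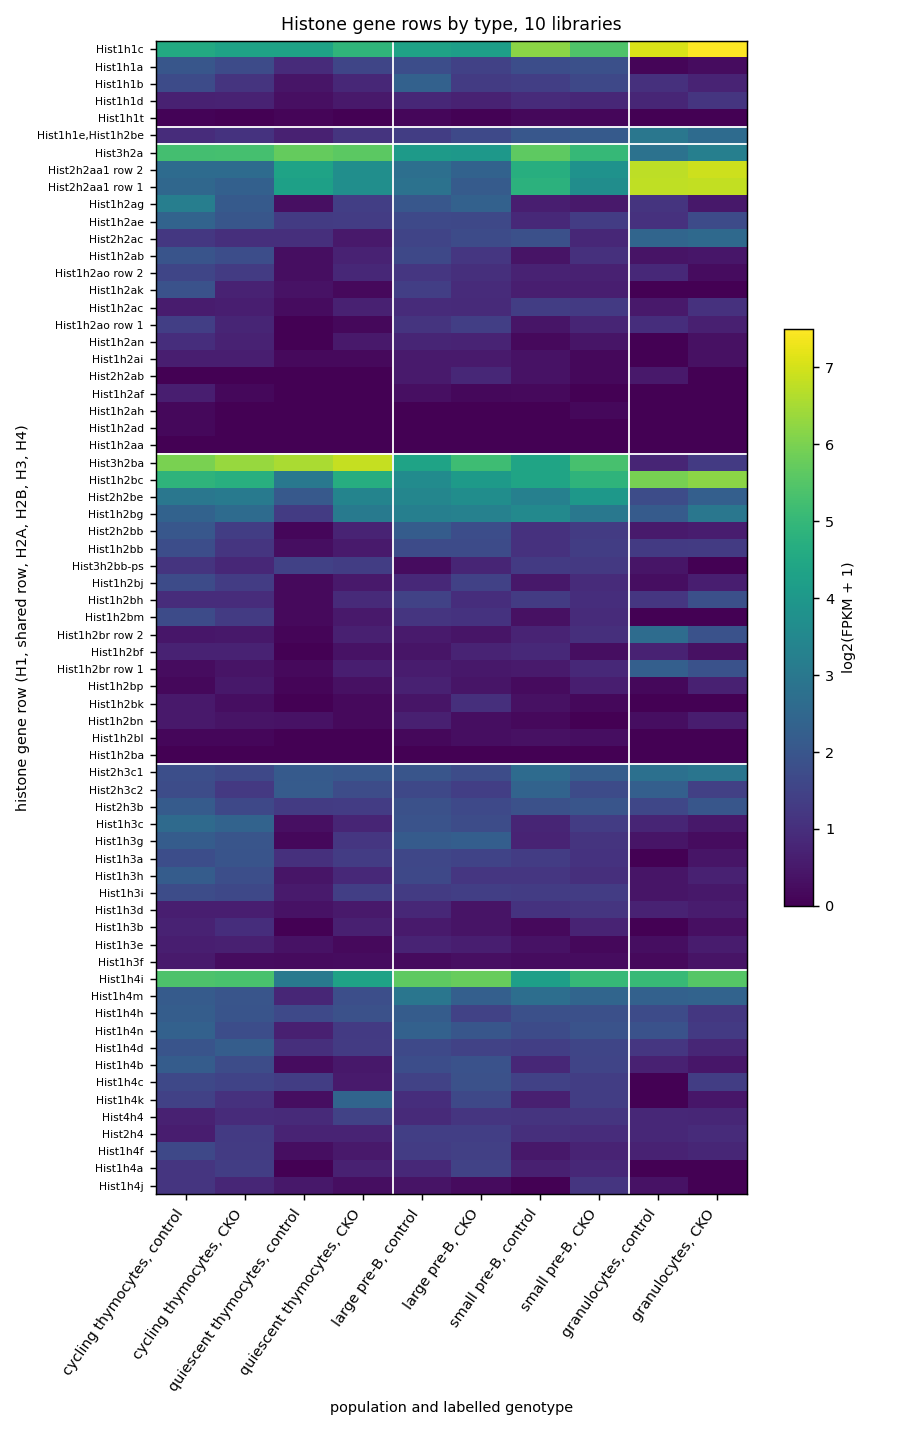
Level of each of the 67 rows (vertical axis, grouped by histone type and ordered by lymphoid mean) in each of the 10 libraries (horizontal axis), coloured by log2(FPKM + 1). Few rows are bright, and the bright rows differ between lymphocytes and granulocytes: Hist3h2ba leads in thymocytes, Hist1h1c and Hist2h2aa1 in granulocytes.

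Many cluster genes were lower in quiescent thymocytes and a few were higher. Of 47 rows tested, 21 were lower and 3 were higher in quiescent than in cycling CD4+CD8+ thymocytes (limma, Benjamini-Hochberg adjusted p under 0.05 over all genes). Among all 11143 genes tested, 19.7% were called lower and 25.2% higher. The median log2 difference of the tested rows was -0.69, against 0.06 for all genes. By type, 6 of 13 H4 rows, 5 of 9 H3 rows, 4 of 10 H2B rows, 6 of 11 H2A rows and 0 of 3 H1 rows were lower. The test needed at least 1 FPKM in 2 of the 8 lymphoid libraries, of either lineage, so the 47 are not all members. Of the 47 rows, 8 met that in cycling libraries alone, which favours a decline. Another 2 met it in quiescent libraries alone, which favours a rise. Of the 15 rows at 1 FPKM or more in all 8 lymphoid libraries, a choice that leaves out rows that fell far, 4 were lower and 3 higher in quiescent thymocytes. Without the control pair of thymocyte libraries no row passed, in a fit with 1 residual degree of freedom that called 4 genes in all, so the count rests on that pair.

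H4 had the largest decline in summed FPKM among the types in both thymocyte pairs. Its summed level went from 68.1 FPKM in control cycling thymocytes to 15.7 in control quiescent thymocytes, and from 62.7 to 36.1 in the CKO-labelled pair. Most of it came from Hist1h4i; without it the mean log2 ratio of the H4 sum over the 4 lymphoid pairs was -0.70, against -0.78 for H3 without its own top row. Hist1h4i (chr13:22040636-22041362, minus strand) encodes the H4 protein shared by the H4 genes. It read 41.0 FPKM in control and 39.6 in CKO cycling thymocytes, and 7.14 and 19.1 in the quiescent ones. Both quiescent libraries lay under both cycling libraries, by a fitted log2 difference of -1.69 ± 0.34 (SE, adjusted p = 0.014 by limma, 2 of 2 pairs lower). Hist1h4b, 1 of the scarcer H4 genes, fell from 3.56 and 2.31 FPKM to 0.20 and 0.41 (log2 difference -1.58, limma adjusted p = 0.0079). Hist1h4n, Hist1h4f, Hist1h4d and Hist1h4a were also lower, by log2 differences of -1.09, -1.07, -0.93 and -0.91 (limma adjusted p = 0.033, 0.0092, 0.0083 and 0.015). Hist1h4m, the next most abundant H4 row, went from 3.44 and 2.90 FPKM to 0.76 and 2.52, and Hist1h4h from 3.61 and 2.82 to 2.14 and 2.63, and neither passed. Hist4h4, the lone Hist4 gene, which lies on chromosome 6, stayed between 0.62 and 1.78 FPKM in all 10 libraries and did not pass.

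H3 sums were lower as well, going from a summed 27.3 to 11.1 FPKM in the control pair and from 22.5 to 14.2 in the CKO-labelled pair. Hist1h3c had the largest fitted decline of any row in thymocytes: 4.98 and 4.24 FPKM in control and CKO cycling cells against 0.23 and 0.71 in quiescent cells (log2 difference -1.95 ± 0.25 SE, limma adjusted p = 0.0069). Hist1h3g (-1.41, limma adjusted p = 0.016) and Hist1h3h (-1.34, limma adjusted p = 0.0092) were likewise lower in 2 of 2 pairs. The Hist2 H3 genes did otherwise. Hist2h3c1 read 2.52 and 2.07 FPKM in cycling and 3.34 and 3.07 in quiescent thymocytes, and Hist2h3c2 2.34 and 1.36 against 3.41 and 2.36, with no call for either. Hist2h3b, of the same cluster, was lower (-0.57, limma adjusted p = 0.045), as was Hist1h3a of Hist1 (-0.69, limma adjusted p = 0.011).

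Among the H2A and H2B genes, which are paired in the octamer as dimers, declines and rises stood side by side. Hist1h2ag, an H2A gene of Hist1, read 8.14 FPKM in control and 3.36 in CKO cycling thymocytes and 0.23 and 1.62 in quiescent ones (log2 difference -1.81 ± 0.49 SE, limma adjusted p = 0.031). Hist1h2ab (-1.38), Hist1h2ak (-1.03), Hist1h2ae (-0.88) and both rows of Hist1h2ao (-1.0 and -0.88) were lower too, as were the H2B genes Hist2h2bb (-1.26), Hist1h2bj (-1.16), Hist1h2bm (-1.15) and Hist1h2bb (-1.06). The limma adjusted p of these 9 rows lay between 0.0098 and 0.031.

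Hist2h2aa1, an H2A gene of the Hist2 cluster (chr3:96245497-96246082, plus strand), went the other way. It occupies 2 rows, which the files do not tie to separate loci. Row 1 read 4.72 and 3.94 FPKM in control and CKO cycling thymocytes and 18.0 and 12.0 in quiescent ones, a log2 rise of 1.56 ± 0.17 (SE, adjusted p = 0.0065 by limma). Row 2 rose from 5.17 and 5.13 to 19.5 and 11.9 FPKM (1.41 ± 0.21, limma adjusted p = 0.0080). The H2B gene Hist3h2ba (chr11:58948920-58949533, plus strand) was the most abundant row of the thymus, at 62.4 and 80.2 FPKM in cycling and 93.1 and 112.6 in quiescent cells, and rose by a log2 difference of 0.53 ± 0.10 (SE, adjusted p = 0.012 by limma). Its cluster neighbour Hist3h2a, an H2A gene, read 37.0 and 37.9 FPKM in cycling and 52.0 and 47.9 in quiescent thymocytes and did not pass.

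H1 rows gave no call. Hist1h1c, which encodes the abundant linker histone H1.2, read 22.4 and 19.2 FPKM in control and CKO cycling thymocytes and 19.4 and 28.8 in quiescent ones, so the quiescent values lie on either side of the cycling ones. Hist1h1a went from 2.99 and 2.30 to 0.89 and 1.93 FPKM and Hist1h1b from 2.30 and 1.21 to 0.35 and 0.80. The H1 sum therefore follows Hist1h1c: over the 4 lymphoid pairs the mean log2 ratio of quiescent to cycling was 0.68 with Hist1h1c and -0.59 without it. The H2B mean was 0.14 with its most abundant row Hist3h2ba and -0.35 without. Both values without the top row are drawn down by the control thymocyte pair, at -1.95 for H1 and -1.85 for H2B, while the other 3 pairs lay between -0.52 and 0.52 for H1 and between -0.02 and 0.30 for H2B.

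**Figure D2:**
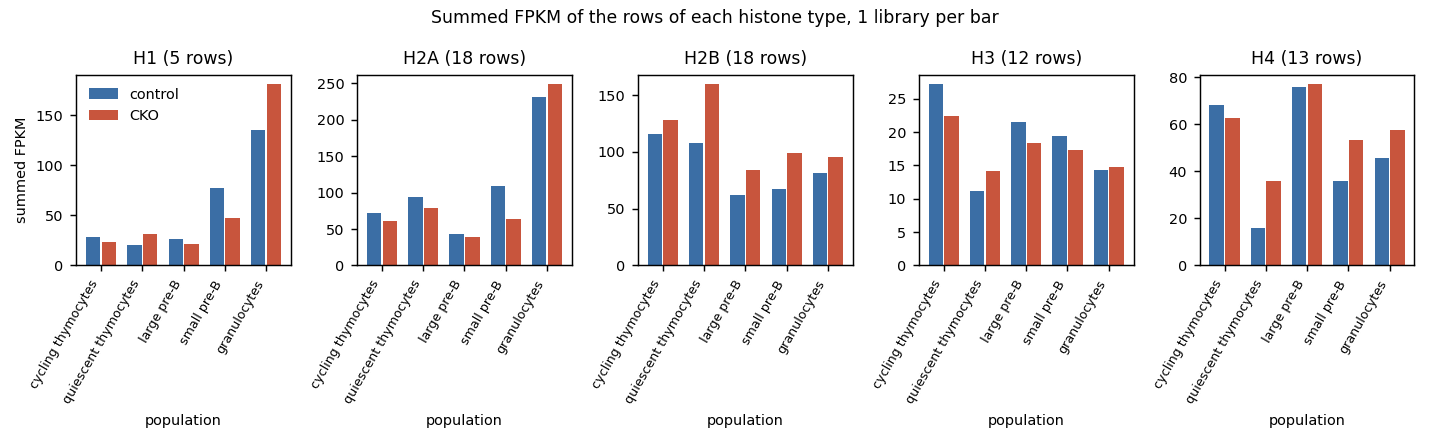
Summed FPKM (vertical axis, from 0, with a separate scale in each panel) of the rows of each histone type in the 5 populations, with 1 bar per library, blue for control and red for CKO. The H4 bar drops from 68.1 to 15.7 between control cycling and quiescent thymocytes, and the H1 and H2A bars are tallest in granulocytes.

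The same step in the B lineage, from large to small pre-B cells, gave calls in both directions. Of 47 rows tested, 8 were higher and 6 lower in small pre-B cells by limma, and neither count is above the background, 25.6% of all genes called higher and 21.8% lower. The split depends on scaling: 8 were higher and 2 lower after median-ratio rescaling, and 7 higher and 1 lower with a pseudocount of 0.1. Of the 15 rows at 1 FPKM or more in all 8 lymphoid libraries, 6 were higher and 1 was lower. The median log2 difference was -0.27, against 0.04 for all genes. All 6 rows lower in pre-B cells were also lower in thymocytes, both rows of Hist2h2aa1 were higher in each lineage, and no row was called in opposite directions. Without the control pair of pre-B libraries no row passed, in a fit that called 3 genes in all. Without the CKO-labelled pair only the control pair remains for this step, with 1 library per population, so sizes alone are given. Its log2 differences of (FPKM + 1) were 1.98 and 1.95 for the rows of Hist2h2aa1 and 1.86 for Hist1h1c. They were 1.55 for Hist3h2a and 1.03 for Hist3h2bb-ps. Of 43 rows at 1 FPKM or more in either library of that pair, 18 were above 0 and 25 below. Markers of other cells moved with this step. The 5 erythroid markers summed to 378 and 206 FPKM in control and CKO large pre-B cells and to 27.3 and 22.6 in small ones, and the 5 monocyte markers to 272 and 112 against 14.3 and 139.8. The granulocyte precursor genes Elane and Mpo read 250.9 and 365.3 FPKM in the control library of large pre-B cells and 6.86 and 6.48 in that of small ones. Their part in the pre-B results was not tested.

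Hist1h1c rose here. It read 19.1 and 17.5 FPKM in control and CKO large pre-B cells and 71.9 and 42.1 in small pre-B cells (log2 difference 1.54 ± 0.23 SE, limma adjusted p = 0.0070). Hist2h2aa1 row 1 went from 6.14 and 3.49 FPKM to 27.2 and 11.7 (1.74 ± 0.17 SE, limma adjusted p = 0.0034), and row 2 from 5.67 and 4.14 to 24.8 and 13.2 (1.71 ± 0.21 SE, limma adjusted p = 0.0046). Hist3h2a rose from 15.9 and 15.1 FPKM to 48.4 and 31.6 (1.28 ± 0.15 SE, limma adjusted p = 0.0045). In each of these genes the control small pre-B library was the higher of the small pre-B pair, and both stood over both large pre-B libraries. Smaller rises were called for the pseudogene Hist3h2bb-ps (0.75), the shared row of Hist1h1e and Hist1h2be (0.57), Hist2h3c1 (0.55) and Hist2h3c2 (0.54), with limma adjusted p between 0.019 and 0.036.

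The declines were again in H2A, H3 and H4 genes of Hist1. Hist1h2ag went from 3.14 and 4.00 FPKM to 0.55 and 0.44 (log2 difference -1.61 ± 0.49 SE, limma adjusted p = 0.042), Hist1h3g from 3.46 and 3.77 to 0.69 and 1.20 (-1.26, limma adjusted p = 0.021). Hist1h4i fell from 49.1 and 53.0 FPKM to 17.6 and 31.6 (-1.08 ± 0.34 SE, limma adjusted p = 0.048). Hist1h3c (-0.78), Hist1h4f (-0.76) and Hist1h2ao row 1 (-0.67) were the others, with limma adjusted p of 0.047, 0.020 and 0.046. Summed H4 went from 75.8 to 36.0 FPKM in the control pair and from 77.3 to 53.3 in the CKO-labelled pair.

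Whether the state difference itself differed between lineages was tested as a contrast of the same fit. No row passed by limma, with or without a variance trend, and the smallest adjusted p was 0.069. An unadjusted p under 0.05 was found for 13 of 47 rows and for 28.2% of all genes. In the background, 3.61% of genes had a difference called higher and 3.21% called lower in thymocytes. The estimate was below 0 in 43 of 47 rows, that is, lower in thymocytes than in pre-B cells. The median was -0.49, against 0.01 for all genes, of which 50.9% were above 0. Of 36 replication fork genes, a list described below, 35 were below 0 as well (median -0.91). Hist1h2bc had the largest single estimate of the cluster rows (-1.74, limma adjusted p = 0.12). Its pairs did not move alike: it read 28.3 FPKM in control cycling thymocytes, 7.07 in control quiescent thymocytes, but 25.7 and 24.4 in the CKO-labelled pair, and a higher value in small pre-B cells (19.6 and 28.2) than in large ones (11.2 and 15.9). Without the CKO-labelled thymocyte pair, Hist1h2bc alone passed this contrast, as lower in thymocytes.

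**Figure D3:**
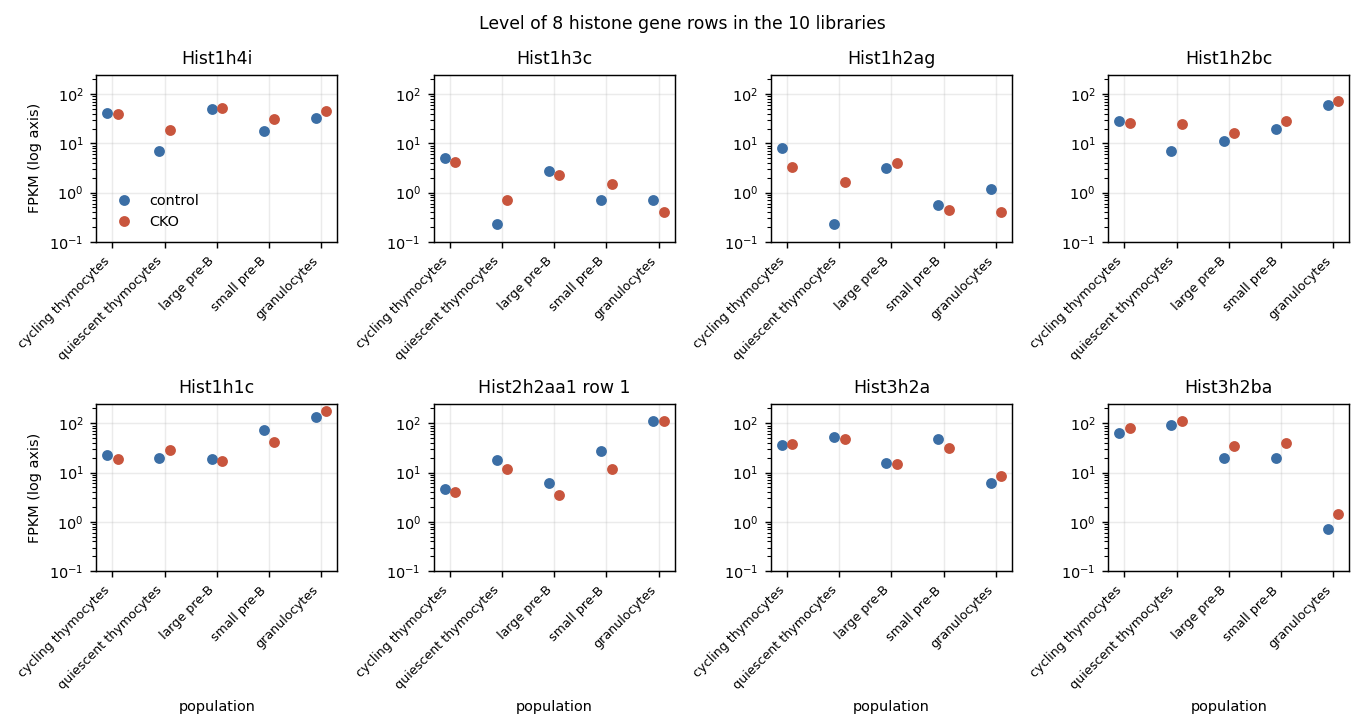
FPKM on a log axis (vertical) of 8 rows in the 5 populations (horizontal), with 1 point per library, blue for control and red for CKO. Hist1h4i, Hist1h3c and Hist1h2ag are lower in quiescent thymocytes and small pre-B cells than in their cycling counterparts, Hist2h2aa1 is higher, and Hist3h2ba spans 0.71 to 112.6 FPKM across populations.

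Calls were counted by position in the clusters, beside 19.7% of all genes lower and 25.2% higher in thymocytes. In pre-B cells 21.8% of genes were lower and 25.6% higher. In thymocytes, 19 of 34 tested Hist1 rows were lower and 0 were higher. The 9 tested Hist2 rows gave 2 lower and 2 higher, and the 3 Hist3 rows 0 lower and 1 higher. In pre-B cells, 6 of the 34 Hist1 rows were lower and 2 higher. There Hist2 gave 0 lower and 4 higher, and Hist3 gave 0 lower and 2 higher. Within Hist1, a block of 5 genes from Hist1h2ah to Hist1h2bj (chr13:22035164-22043676) holds Hist1h4i, Hist1h2ag and Hist1h2bj. All 3 of its tested rows were lower in thymocytes and 2 in pre-B cells. Its summed level was 51.9 and 44.7 FPKM in control and CKO cycling thymocytes, and 7.52 and 21.3 in quiescent ones. The 3 Hist3 genes, on chromosome 11, summed to 100.5 and 118.9 FPKM in cycling thymocytes and 146.9 and 162.0 in quiescent thymocytes. They summed to 35.6 to 72.1 FPKM in pre-B libraries and to only 7.20 and 9.79 in granulocytes.

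Some close neighbours had very different levels. Among head-to-head genes with at most 1000 bases between them, 11 of 12 pairs join an H2A to an H2B gene. The 2 pairs that hold an abundant H2B gene with no stem-loop found were looked at after their values were seen. Hist1h2ac and Hist1h2bc lie 250 bases apart, yet Hist1h2ac read 0.20 to 1.57 FPKM and Hist1h2bc 7.07 to 71.6 over the 10 libraries. Hist2h2ac and Hist2h2be, 238 bases apart, differed in direction between cell types: granulocytes had more Hist2h2ac (4.48 and 4.91 FPKM) than any lymphoid library (0.44 to 2.54), and less Hist2h2be (2.33 and 3.78) than all lymphoid libraries but control quiescent thymocytes (3.31; others 6.82 to 15.1).

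The calls were also set against how far the transcript model runs past the stem-loop, a grouping chosen after the values were seen, so the counts describe and test nothing. Among all genes tested, 19.7% were called lower and 25.2% higher in thymocytes, and 21.8% lower and 25.6% higher in pre-B cells. Of 18 tested rows whose model ends under 100 bases after the stem-loop, 13 were lower and 2 higher in quiescent thymocytes, with a median log2 difference of -1.06. Of 17 whose model runs further, 4 were lower and 1 was higher, with a median of -0.20. In pre-B cells the ends-sooner rows gave 5 lower and 2 higher (median -0.47) and the longer ones 1 lower and 4 higher (median 0.08). The 2 higher rows with a short end are those of Hist2h2aa1 in both lineages. A poly(A) signal (AATAAA or ATTAAA) stood in the last 40 bases of a model for 16 rows, of which 7 reached 5 FPKM, while 6 of the 50 rows without one did. Longer models also hold more sequence of their own: the share of 50-base stretches found in no other cluster gene had a median of 77.9% in the longer group and 45.4% in the shorter, so read sharing between copies and transcript end cannot be told apart here. Hist1h2ag has 21.1% such stretches and Hist1h3c 53.0%, against 98.0% in Hist3h2a and 91.5% in Hist1h1c, and values of the former depend more on how shared reads were divided.

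**Figure D4:**
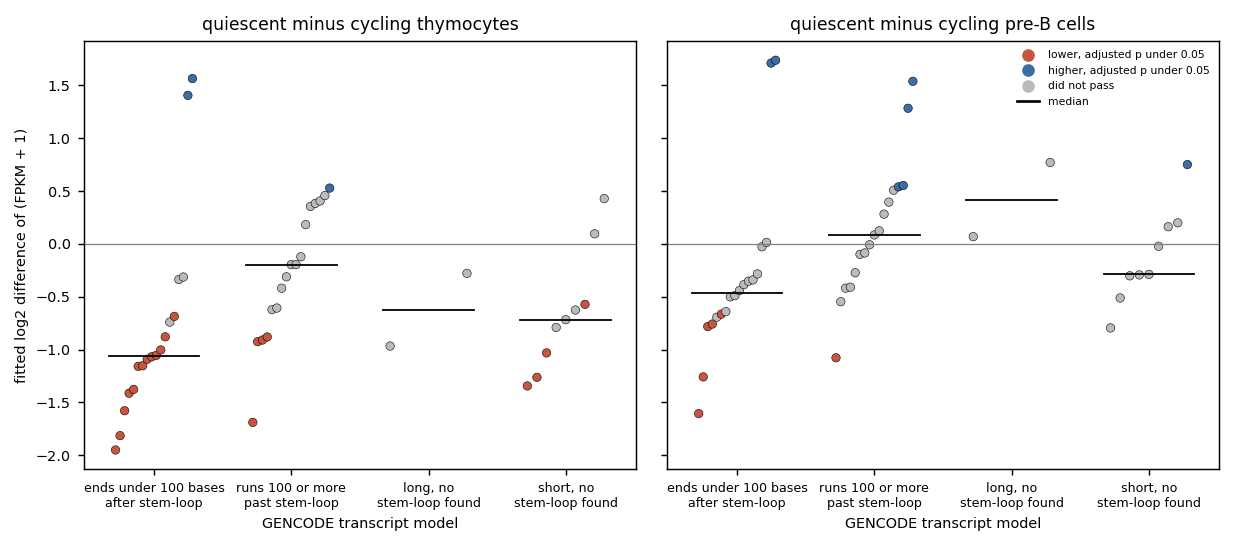
Fitted log2 difference of (FPKM + 1), quiescent minus cycling (vertical axis), of the tested rows grouped by transcript model (horizontal axis), in thymocytes and pre-B cells, with 1 point per row coloured by call and a bar at the median. The medians are -1.06 and -0.20 in thymocytes for models ending before and after 100 bases past the stem-loop.

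Promoter windows (250 bases before to 50 after the start, RefSeq, GRCm38.p6) were matched for 59 of the 65 genes and searched on both strands for the octamer ATTTGCAT (known as the site of the POU factors Pou2f1 and Pou2f2 in H2B promoters), CCAAT and TATAAA. Overlapping matches were all kept, and a match is a description only. The octamer occurred in 7 of 15 H2B and 7 of 16 H2A windows and in 0 of the H1, H3 and H4 windows, against 1.74% of all 32851 promoters in the table. CCAAT occurred in every H1, H2A, H2B and H3 window but in 3 of 12 H4 windows, against 37.41% of the table, and TATAAA in 35 of the 59 windows against 13.62%. The 150 bases before the start are shown for an H2B gene with the octamer, for the H4 gene that dominates its type and for the H2B gene most abundant in thymus, with the motifs in capitals.
Hist1h2bg (chr13:23571250-23571399, plus strand): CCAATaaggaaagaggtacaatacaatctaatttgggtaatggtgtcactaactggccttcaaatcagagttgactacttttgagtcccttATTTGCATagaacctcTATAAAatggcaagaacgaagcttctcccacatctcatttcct
Hist1h4i (chr13:22041363-22041512, minus strand): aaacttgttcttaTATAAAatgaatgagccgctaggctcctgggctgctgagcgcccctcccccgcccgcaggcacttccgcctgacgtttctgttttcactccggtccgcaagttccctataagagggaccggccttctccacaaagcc
Hist3h2ba (chr11:58948761-58948910, plus strand): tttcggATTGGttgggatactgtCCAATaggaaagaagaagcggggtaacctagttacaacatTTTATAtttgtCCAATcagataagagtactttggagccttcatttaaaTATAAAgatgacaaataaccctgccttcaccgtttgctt
In Hist1h2bg the octamer begins 59 bases before the start and TATAAA 43 bases before it. Hist3h2ba has TATAAA at 39 and 3 CCAAT matches, and Hist1h4i has TATAAA only at 137. Calls were counted among tested H2A and H2B rows with a matched window, which leaves out Hist1h2bc, Hist2h2be and Hist3h2bb-ps. In quiescent thymocytes 5 of 9 rows with the octamer and 5 of 9 without it were lower, against 19.7% of all genes. There 0 of 9 with it and 3 of 9 without it were higher, against 25.2%. In small pre-B cells 0 of 9 with it and 2 of 9 without it were lower, against 21.8%. Higher there were 1 of 9 with it and 2 of 9 without it, against 25.6%.

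Granulocytes had a cluster profile of their own, described without a test since the design compares them with no other population. Hist1h1c was highest there, at 134.0 FPKM in the control and 179.8 in the CKO library, against 17.5 to 71.9 in lymphoid libraries. Hist2h2aa1 followed, at 109.3 and 110.9 FPKM for row 1 and 106.6 and 120.1 for row 2, against 3.49 to 27.2 in lymphoid libraries over both rows. Hist1h2bc read 61.5 and 71.6 FPKM, above its lymphoid range of 7.07 to 28.3. Hist1h2br, an H2B gene with a long model and no stem-loop found, stood apart at 2.68 to 5.30 FPKM over its rows against at most 1.02 in lymphocytes. Hist3h2ba, in contrast, was at 0.71 and 1.41 FPKM against 19.5 to 112.6 in lymphocytes. The genes that marked cycling lymphocytes were scarce in granulocytes, with Hist1h3c at 0.70 and 0.41 FPKM and Hist1h4b at 0.62 and 0.37, while Hist1h4i read 32.3 and 45.1, against 7.14 to 31.6 in the quiescent and 39.6 to 53.0 in the cycling lymphoid libraries. Granulocyte levels are the least sure, since the abundant S100a9 is listed at 0 in both of these libraries.

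Against genotype, no cluster row differed by a test. Over all 5 populations, 0 of 49 rows passed by limma, with or without a variance trend. Of these rows, 6 had an unadjusted p under 0.05, against 16.8% of all genes. At the adjusted threshold, all 11735 genes gave 0.0341% higher and 0.017% lower. Hist3h2ba was higher in the CKO-labelled library in 5 of 5 populations, by a log2 difference of 0.58 ± 0.11 (SE, adjusted p = 0.15 by limma): 80.2 against 62.4 FPKM in cycling and 112.6 against 93.1 in quiescent thymocytes, 35.3 against 19.5 in large and 39.1 against 19.9 in small pre-B cells, and 1.41 against 0.71 in granulocytes. Hist2h2be was also higher in 5 of 5 (0.58 ± 0.17 SE, limma adjusted p = 0.23), and Hist2h3c2 lower in 5 of 5 (-0.53 ± 0.11 SE, limma adjusted p = 0.15).

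In the quiescent populations, 0 of 47 rows passed by limma, with or without a variance trend, and genes as a whole gave 0% higher and 0% lower. An unadjusted p under 0.05 was found for 12 of the 47 rows and for 19.2% of all genes. The estimates leaned upward: 36 of 47 were above 0 in CKO-labelled cells. Their median log2 difference was 0.27. For all genes it was -0.03, with 45.8% above 0. Among rows at 5 FPKM or more in the higher library, a limit that can fix direction, the populations differed. In quiescent thymocytes 6 of 9 were above 0 and 3 below (median 0.55, against -0.01 for genes). In small pre-B cells 4 of 11 were above 0 and 7 below (median -0.41, against -0.10 for genes). Hist1h4i read 19.1 FPKM in CKO against 7.14 in control quiescent thymocytes, and 31.6 against 17.6 in small pre-B cells (1.06 ± 0.15 SE, limma adjusted p = 0.073). Hist2h2be read 9.45 against 3.31, and 15.1 against 8.64 (1.01 ± 0.17 SE, limma adjusted p = 0.085). Both rows of Hist2h2aa1, the gene higher in quiescence, read lower in CKO-labelled cells (-0.85 and -0.76, limma adjusted p = 0.14 and 0.098). Their levels were 12.0 against 18.0 and 11.9 against 19.5 FPKM in quiescent thymocytes, and 11.7 against 27.2 and 13.2 against 24.8 in small pre-B cells. Summed proliferation markers moved with these values, at 6.33 in control and 133 in CKO quiescent thymocytes and 143 and 322 in small pre-B cells, and their part in the result was not tested. Fewer cells of a kind and less RNA per cell cannot be told apart in such bulk samples. The CKO small pre-B library also had a higher sum of 5 innate cell markers (90.5 against 10.9 FPKM in control, all 5 of them higher, none at 0) and of 5 monocyte markers (139.8 against 14.3, of which Csf1r alone was not higher), whose part was not tested.

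In the cycling populations the estimates leaned downward instead, with 31 of 47 rows below 0 and a median of -0.18, against 0.01 for all genes. No row passed by limma, with or without a variance trend, and the background was 0.00897% higher and 0.0179% lower. Of the 47 rows, 5 had an unadjusted p under 0.05, against 4.16% of all genes. The difference between the states was above 0 in 37 of 47 rows (median 0.45, against -0.03 for all genes). None passed (smallest limma adjusted p = 0.52, for Hist1h4i at 1.03), with 0.00897% of genes called in each direction. An unadjusted p under 0.05 was found for 9 of the 47 rows and for 6.69% of all genes.

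Within single populations, rows were counted where the ratio of (FPKM + 1) reached 2-fold and the higher library reached 5 FPKM, with no test. In quiescent thymocytes 4 of 9 rows were higher in CKO and 0 lower, with 3.66% of genes higher and 1.6% lower. These were Hist1h2bg (7.29 against 1.47 FPKM), Hist1h2bc (24.4 against 7.07), Hist1h4i and Hist2h2be (9.45 against 3.31), so 3 of the 4 are H2B genes and 1 is H4. The 5 FPKM limit held for the higher library alone, so Hist1h2bg and Hist2h2be entered the 9 only through the CKO library. Their direction was thereby fixed. In small pre-B cells Hist2h2aa1 row 1 was lower and 0 of 11 rows were higher (4.53% of genes higher, 1.79% lower). In cycling thymocytes Hist1h2ag alone was lower, of 9 rows, with 0 higher (0.374% and 0.58% of genes higher and lower). Its direction was fixed too, since it reached 5 FPKM in the control library alone (8.14 against 3.36 in CKO). No row qualified among 10 in large pre-B cells (0.883% and 0.971%) or 10 in granulocytes (0.583% and 1.76%). Hist1h4k, under the 5 FPKM limit, read 4.35 FPKM in CKO quiescent thymocytes and 0 to 2.08 in the other 9 libraries, and is named after its values were seen.

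**Figure D5:**
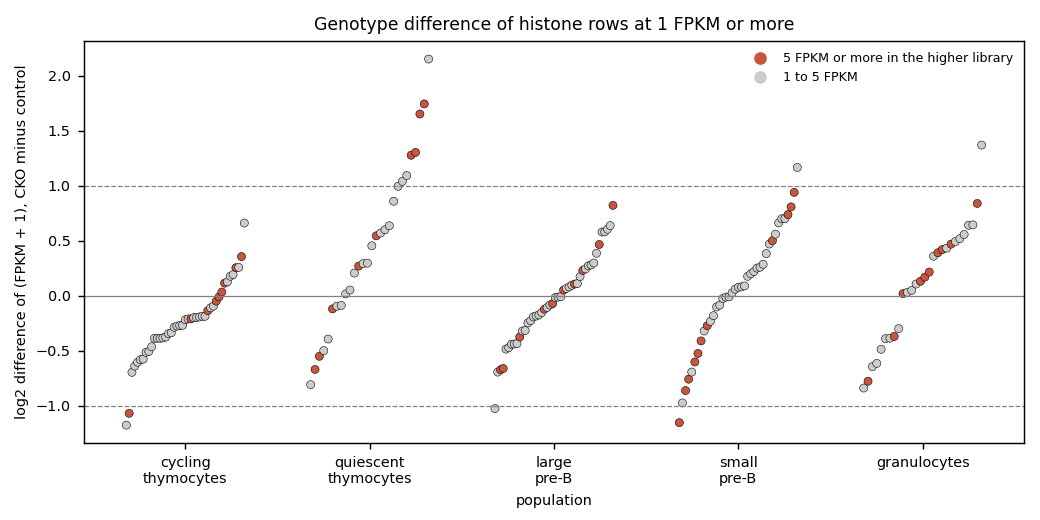
Log2 difference of (FPKM + 1), CKO minus control (vertical axis), of rows at 1 FPKM or more in each population (horizontal axis), with 1 point per row, red where the higher library reached 5 FPKM. The 4 red points above the upper dashed line, at a 2-fold rise, are in quiescent thymocytes.

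The machinery around the histone genes was read from 4 lists, against the background of 19.7% of genes lower and 25.2% higher in thymocytes and 21.8% and 25.6% in pre-B cells. Of 36 replication fork genes, 36 were lower in quiescent thymocytes and 17 in small pre-B cells (limma adjusted p under 0.05), and none was higher, with median log2 differences of -2.04 and -1.12. The histone rows had medians of -0.69 and -0.27, but these are on the log2(FPKM + 1) scale, which shrinks changes of such scarce rows, so the sizes are not compared. Of 28 histone gene regulators tested, 12 were lower and 3 higher in thymocytes and 9 lower and 1 higher in pre-B cells. Slbp, which binds the stem-loop, read 254.2 and 275.8 FPKM in control and CKO cycling thymocytes and 69.9 and 162.2 in quiescent ones (log2 difference -1.30, called lower). It went from 173.0 and 190.0 to 77.1 and 136.2 FPKM in pre-B cells, with no call (-0.82). Npat, the coactivator of histone genes in S phase, read 19.1 and 22.2 FPKM in cycling and 16.5 and 22.6 in quiescent thymocytes, with no call in either lineage. Pou2f2, a POU factor of B cells, was the regulator called higher in small pre-B cells (1.06).

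Of 26 histone chaperones, 17 were lower and 3 higher in thymocytes, and 13 lower and 4 higher in pre-B cells. Chaf1a, the large subunit of the replication-coupled assembly factor CAF-1, read 39.5 and 40.8 FPKM in control and CKO cycling thymocytes and 3.22 and 16.0 in quiescent ones (-2.28, called lower). Replacement histones, many of which are made outside S phase from mRNAs with poly(A) tails, covered a wide range. H3f3a read 825 to 2734 FPKM over the 10 libraries and H2afz 332 to 1345, above every cluster row, while the linker variant H1f0 read 7.33 to 61.7. Of 10 variants tested, 6 were lower and 0 higher in each lineage; H2afz fell by 1.48 and 1.26 on the log2 scale, while H3f3a and H3f3b were not called in either. The lists were not called for genotype in quiescent cells (0 of 36, 28, 26 and 10 genes), where the replication fork genes had a median log2 difference of 1.15, above 0 in 35 of 36.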

How the data were processed

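The authors deposited 1 table per library, read here as FPKM from the values and the named tools. The submitters' processing notes list the build mm10 and the tools TopHat2 2.0.8b and Cuffdiff 2.1.1, without roles. Total RNA was extracted from stained cells, per the labels' protocols. The sources used here do not give annotation, strand setting or depth. Each table held 23179 rows; 201 exact repeats were dropped and 22978 kept, with symbols on several rows kept apart. Tests used limma 3.58.1 (R 4.3.3) on log2(FPKM + 1), which understates changes of low genes, with genes at 1 FPKM or more in 2 or more fitted libraries, Benjamini-Hochberg adjustment over all genes and a threshold of 0.05. Genotype was fitted over 5 populations with a population block (4 residual degrees of freedom), or per cycle state over the 8 lymphoid libraries (2). State was fitted in 1 model, with a term per lineage and each combination of lineage and genotype as a block (2). The spread of this fit is the disagreement between the control and CKO pairs, pooled over both lineages. With 1 library per population and genotype, p-values measure the likeness of pooled libraries, not of animals. An exact 0 can be a failed estimate. The fits were tested on simulated data. Members and lists were chosen with earlier results of these data known. Named were, per type, the 3 highest lymphoid means and the largest state difference, every called row, Hist4h4, and list genes; no row was at 0 in 1 library and at 10 or more in another. Alternatives were pseudocount, filter, rescaling, prior variance, blocks and left-out pairs.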

Additional observations from a re-analysis of the deposited data

How the results depend on the processing

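From 14 rows called in pre-B cells, the number fell to 8 with a pseudocount of 0.1 and to 7 with no filter, and in thymocytes it went from 24 to 13 with no filter. Leaving out 1 pair at a time gave 0 rows for genotype over all populations. For state, where it was chosen after seeing the data, it gave 0 to 31 rows in thymocytes, 0 to 18 in pre-B cells and 0 to 1 for the difference between lineages. All state fits that left out a pair have 1 residual degree of freedom. The lowest count of each lineage came from the fit without its control pair. The 2-fold genotype counts became 0, 1 and 0 in cycling thymocytes, quiescent thymocytes (Hist1h2bc) and small pre-B cells with a pseudocount of 5. With a minimum of 1 FPKM they became 2, 7 and 2 there, 1 in large pre-B cells (Hist1h1b, lower) and 1 in granulocytes (Hist1h4c, higher). The H1 and H2B sums changed sign without their most abundant row, to -0.59 and -0.35. The other 66 planned and 8 added alternatives kept their totals within 1.5 times or 1 SD, although the split of pre-B calls moved from 8 higher and 6 lower to 8 and 2 after rescaling. Depth is unknown, so no interval is given for single libraries, and rows under 1 FPKM cannot be ordered.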
